A study of Mus musculus with 2 samples.

Results

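The azurophil granule genes studied here are Mpo, Elane, Prtn3, Ctsg and Ms4a3, chosen by name. All 5 were found among the 21544 genes of the deposited neutrophil gene table and among the 28523 genes of all cells. They were followed in metastases that 4T1, a murine line of triple-negative breast cancer, formed in the liver of female BALB/c mice aged 6 to 8 weeks. In 1 group the injected cells carried a scrambled hairpin as the control (shSCR), and in the other Zdhhc17, a gene for a palmitoyltransferase, was silenced by its hairpin (shZdhhc17). Both kinds of cell were made with the same lentiviral vector and puromycin selection, and 250000 cells were injected into the spleen, which was then removed. Metastases were dissected on day 14. Cells from 3 mice per group were pooled before capture, so each group was 1 library and single mice could not be told apart. The hairpin was in the injected cancer cells, and the neutrophils were those of the host.

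Azurophil granules are the first granules that a neutrophil precursor fills, at the promyelocyte stage in the bone marrow. Their genes are switched off as the cell matures, while the proteins stay stored and are released against microbes. Mpo encodes myeloperoxidase, which makes hypochlorous acid. Elane (neutrophil elastase), Prtn3 (proteinase 3) and Ctsg (cathepsin G) encode serine proteases of the same granule. Ms4a3 encodes a membrane protein of the MS4A family that marks granulocyte and monocyte progenitors. It is a gene of the same precursor stage rather than one of the granule contents.

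On GRCm38, as GENCODE M21 annotates it, all 5 are protein-coding genes. Mpo (ENSMUSG00000009350.13) lies on chromosome 11 from 87793581 to 87804413 on the plus strand. Elane (ENSMUSG00000020125.7, 79886247 to 79888215) and Prtn3 (ENSMUSG00000057729.12, 79874476 to 79883174) lie side by side on the plus strand of chromosome 10, with 3072 bases between them. Ctsg (ENSMUSG00000040314.2) lies on chromosome 14 from 56099881 to 56102574 on the minus strand, between mast cell protease and granzyme genes. Ms4a3 (ENSMUSG00000024681.11) lies on chromosome 19 from 11629496 to 11640851 on the minus strand, with other Ms4a genes on its lower side.

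The stretches before the starts of these genes are shown because the 5 genes were listed as markers of the same neutrophil cluster, and because all 5 stretches held the letters GGAAGT. These letters are the core of sites for ETS-family transcription factors, among them PU.1, which directs myeloid development. The sequences are RefSeq promoter windows (GRCm38.p6), printed 5′ to 3′ on the strand of the gene, with GGAAGT in capitals. Each starts 250 bases before the RefSeq start and stops at the start or before the first exon that GENCODE annotates within the window. For Prtn3, GENCODE has a further non-coding transcript that begins upstream, and the stretch shown lies in an intron of it. They come from chr11:87793534-87793580 (plus), chr10:79886062-79886246 (plus), chr10:79879417-79879613 (plus), chr14:56102575-56102824 (minus) and chr19:11640852-11641101 (minus).
Mpo: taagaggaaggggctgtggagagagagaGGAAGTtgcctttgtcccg
Elane: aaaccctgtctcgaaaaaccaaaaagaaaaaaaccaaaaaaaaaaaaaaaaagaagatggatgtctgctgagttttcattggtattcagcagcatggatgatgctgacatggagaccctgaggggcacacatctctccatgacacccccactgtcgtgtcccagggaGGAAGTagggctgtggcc
Prtn3: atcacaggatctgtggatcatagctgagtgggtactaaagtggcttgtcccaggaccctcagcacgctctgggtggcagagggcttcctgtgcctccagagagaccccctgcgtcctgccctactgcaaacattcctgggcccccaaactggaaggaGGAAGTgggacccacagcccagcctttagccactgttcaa
Ctsg: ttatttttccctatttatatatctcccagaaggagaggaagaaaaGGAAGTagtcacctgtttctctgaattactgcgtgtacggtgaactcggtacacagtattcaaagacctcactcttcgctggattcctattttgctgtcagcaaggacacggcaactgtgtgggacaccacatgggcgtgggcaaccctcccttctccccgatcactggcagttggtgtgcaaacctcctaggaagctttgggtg
Ms4a3: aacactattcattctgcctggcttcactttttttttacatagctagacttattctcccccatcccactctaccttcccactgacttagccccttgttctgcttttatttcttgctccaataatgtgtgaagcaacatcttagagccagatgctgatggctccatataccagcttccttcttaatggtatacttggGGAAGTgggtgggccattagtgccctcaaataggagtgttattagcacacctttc

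GGAAGT stood on the gene's own strand in all 5 windows of 250 bases. It lay 222 to 217 bases before the RefSeq start in Mpo, 205 to 200 in Ctsg, 93 to 88 in Prtn3, 83 to 78 in Elane and 55 to 50 in Ms4a3. Of 32851 promoter windows of the same length, 19.7% held these letters on either strand and 10.7% on the gene's strand. The longer form GAGGAAGT, which contains GGAAGT, was in 3 of the 5 windows (Mpo, Elane and Prtn3) and in 2.44% of all windows on either strand.

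Searches of both strands for other letters found fewer matches. AACGG, a MYB-like form, was in Elane and Prtn3 and in 14.5% of all windows. TGTGGT, a RUNX-like form, was in Ctsg and in 14.0% of all windows. TTGCNNAA, a C/EBP-like form, was in none of the 5 and in 9.56% of all windows. TATAA was in Elane, Prtn3 and Ctsg and in 22.8% of all windows. In Elane it lay 31 to 27 bases and in Prtn3 32 to 28 bases before the start, whereas in Ctsg it lay 236 to 232 bases before it on the opposite strand. In Elane and Prtn3, TATAA lies in bases that GENCODE places in the first exon, as does AACGG in whole (Elane) or in part (Prtn3), and these bases are not shown above. Of the 15 other markers of the same cluster, the table held 11 windows, and GGAAGT was in 1 of them. A match describes letters only. The letters searched were chosen after the windows of the 5 genes had been read.

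The values of these genes that were analysed are those of the authors' table of the top 20 markers of each of 9 neutrophil clusters. That table compares a cluster with all other neutrophils, over both libraries together. A fold change in it is on the scale of the log2 of counts scaled to depth plus a pseudocount of 1, which understates the change of low genes. Levels of single genes per library or per cell type were not analysed here. The 10922 neutrophils came from 6594 shSCR cells with 37793744 UMIs (molecule counts) and 4328 shZdhhc17 cells with 17128595 UMIs. Since the clusters were formed from the same genes, the marker values are a description and carry no test.

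All 5 genes were listed as markers of the cluster that the authors called Early-Stage 1. Each of the 180 listed markers was listed for 1 cluster only, so whether these genes also marked another cluster cannot be read from the list. The table listed 20 markers of this cluster, or 0.0928% of the 21544 genes, and 0.835% of the genes were markers of any cluster. In the authors' deposited table, Mpo had a log2 fold change of 4.92, the highest of all 180 listed markers. The proteases followed with 4.72 for Ctsg and 4.47 for Elane, ranks 2 and 3 of the 180, and 3.95 for Prtn3, which ranked 5 in the authors' deposited table. Ms4a3 was lower, with 3.23 and rank 11 of 180 in the authors' deposited table. The median of all 180 listed markers in the authors' deposited table was 1.49.

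Nearly every Early-Stage 1 cell had each of the genes. In the authors' deposited table, 99.62% of the cells of the cluster had Mpo above 0. The shares in the authors' deposited table were 99.87% for both Elane and Prtn3, 99.49% for Ctsg and 98.99% for Ms4a3. With 791 cells in the cluster, these shares are 788 cells for Mpo, 790 for Elane, 790 for Prtn3, 787 for Ctsg and 783 for Ms4a3. At most 17 cells can therefore have lacked any of the 5 genes, and at least 774 of the 791 cells (97.9%) had all of them.

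Outside the cluster the genes differed more from each other. In the authors' deposited table, Ctsg was above 0 in 7.05% of the other neutrophils, Elane in 9.64% and Mpo in 9.82%. Ms4a3 (15.22%) and Prtn3 (17.31%) were above 0 more often than the first 3 in the authors' deposited table. Ctsg had the highest specificity score of all 180 markers in the authors' deposited table, followed by Elane and Mpo, while Prtn3 ranked 7 and Ms4a3 ranked 6. This score is the share of cells inside times 1 less 0.5 of the share outside.

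**Figure D1:**
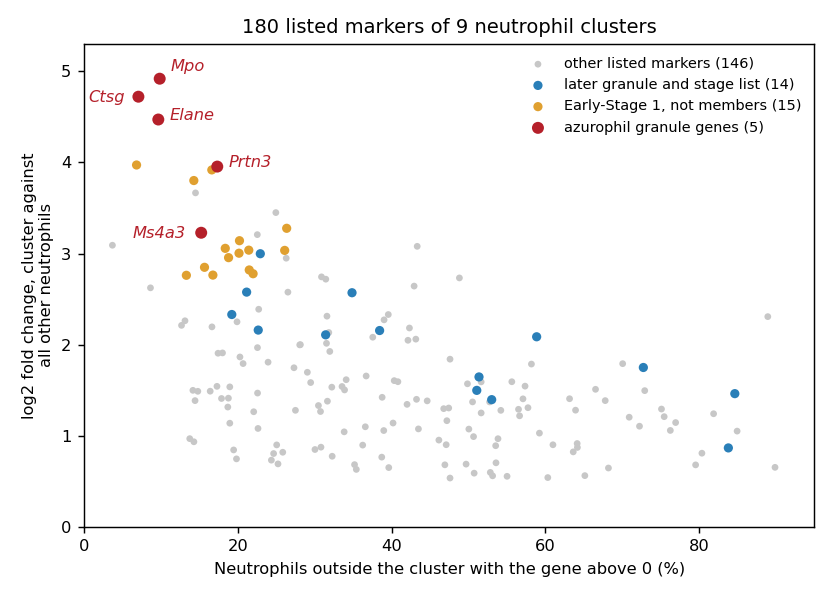
Each point is 1 of the 180 listed neutrophil markers, with the percent of neutrophils outside its cluster that had the gene (x axis) and the authors' log2 fold change of the cluster against all other neutrophils (y axis). Mpo, Ctsg and Elane lie at the upper left, above 4.4 on the log2 scale and under 10% outside the cluster, and the later granule and stage genes lie lower and further right.

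Because the other neutrophils were many, a large part of the cells with these genes lay outside Early-Stage 1. The deposited shares come to 995 cells with Mpo outside the cluster, to within 1 cell, of 1783 in all. The cluster thus held 44.2% of the neutrophils with Mpo (exact 95% interval 41.9 to 46.5). For Elane it held 44.7% (42.4 to 47.1) of 1767 cells, and for Ctsg 52.4% (49.9 to 55.0) of 1501. It held 33.7% (31.8 to 35.6) of the 2325 cells with Ms4a3 and 31.1% (29.3 to 32.9) of the 2544 cells with Prtn3. Of the 5 genes, Ctsg had the largest part of its cells in the cluster, and Mpo, Elane, Ms4a3 and Prtn3 had most of theirs outside it. These intervals, and all others given here, cover counting error only.

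**Figure D2:**
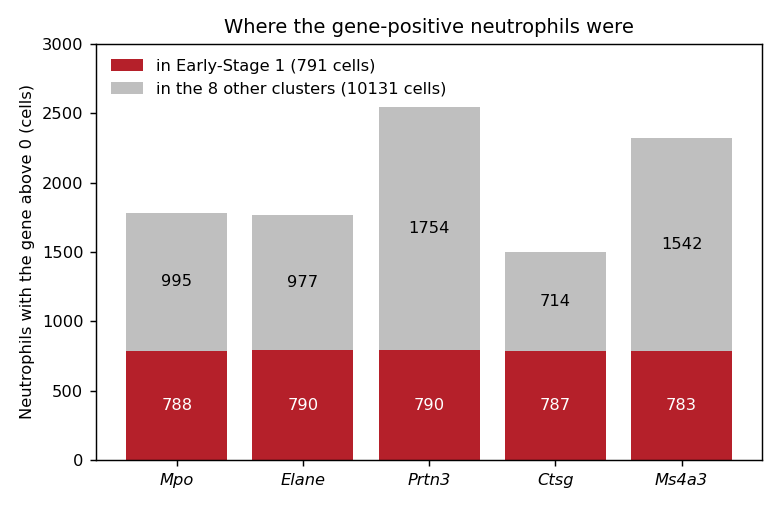
Bars give the number of neutrophils with each gene above 0, inside Early-Stage 1 (red) and in the 8 other clusters (grey). The red parts are nearly equal, 783 to 790 cells, while the grey parts range from 714 cells for Ctsg to 1754 for Prtn3.

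Early-Stage 2, the other early cluster, could not take up all of these cells. It had 659 cells. Even if each of them had the gene, at least 1095 of the 9472 neutrophils of the 7 remaining clusters (11.6%) had Prtn3 above 0. For Ms4a3 this lower limit was 883 cells (9.32%), for Mpo 336 (3.55%), for Elane 318 (3.36%) and for Ctsg 55 (0.581%). The authors corrected the counts for ambient RNA, which is free RNA captured with a cell. How much of it remained in these cells was not tested, and shares in cell types that should lack the genes were not analysed here.

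Depth per cell differed widely between the cells compared. Early-Stage 1 had the most UMIs per cell of the 9 clusters, with a median of 18559 UMIs and 4216 genes. The other neutrophils had a median of 1798 UMIs and 857 genes. A share of cells with a gene above 0 rises with depth, so the shares inside and outside the cluster are not on an equal footing, and the part of depth in them was not tested. The fold changes were computed on counts scaled to depth.

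Among the 20 markers of Early-Stage 1, the 5 azurophil granule genes had a median log2 fold change of 4.47 and the 15 others one of 3.03 in the authors' deposited table. The median share of cells outside the cluster in the authors' deposited table was 9.82% for the 5 and 18.8% for the 15. The highest of the others in the authors' deposited table was Npm1 (3.97, in 6.81% of other neutrophils), which encodes nucleophosmin, a protein of ribosome assembly in the nucleolus. It was followed in the authors' deposited table by Calr (3.92) and Hsp90ab1 (3.80), which encode chaperones, Ptma (3.28), the gene of prothymosin alpha, and Hsp90b1 (3.14), a chaperone gene of the endoplasmic reticulum. Apart from the 5 genes themselves, the markers nearest to Mpo in the share of Early-Stage 1 cells with the gene were Ptma (99.75%), Calr (99.37%) and Hsp90b1 (98.99%) in the authors' deposited table. Ptma differed from Mpo outside the cluster, where 26.34% of cells had it in the authors' deposited table. Of the 20 markers in the authors' deposited table, Npm1 (6.81%) and Ctsg (7.05%) were found least often outside the cluster.

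The authors' flag for the 1000 most variable genes covered all 5 genes. They were all flagged among neutrophils, where 4.64% of genes were, and all 5 also among all cells, where 3.51% were. Of the 15 other Early-Stage 1 markers, 7 were flagged among neutrophils and 0 among all cells. These 7 were Npm1, Calr, Hsp90ab1, Ptma, Hsp90b1, Ncl and Hspa8, named here after their flags were seen. These flags entered the clustering, so they do not stand apart from the marker values.

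Other genes of the azurophil granule and its processing were not among the markers of this cluster. Of 15 such genes on the list, all were in the neutrophil gene table, 3 were flagged as variable (Ctsb, Ctsc and Lyz2) and 0 were listed in Early-Stage 1. Over all genes 4.64% were variable and 0.0928% were listed in Early-Stage 1, so this count of 0 cannot be set apart from that share. In the authors' deposited table, 3 of the 15 were markers elsewhere, and 0.835% of all genes were markers of any cluster. Serpinb1a, which encodes an inhibitor of elastase, proteinase 3 and cathepsin G, was listed in Early-Stage 2 with 2.08 and was found in 37.54% of other neutrophils in the authors' deposited table. Lyz2, the lysozyme gene, was listed in NETosis 1 with 2.74, and Ctsd, the cathepsin D gene, in Migration 1 with 0.55, in the authors' deposited table. Ctsc, whose product activates the granule serine proteases, was flagged as variable but was no listed marker. Prss57, which encodes a further serine protease of this granule, was neither.

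Of 10 regulators of the promyelocyte stage on the list, 1 was a listed marker, against 0.835% of all genes, a count too small to set apart from that share. Cebpe, which encodes the transcription factor that drives the later, specific granules, was listed in Early-Stage 2 with a log2 fold change of 1.31 and was found in 93.93% of its cells in the authors' deposited table. Runx1 was the only one of the 10 flagged as variable among neutrophils, where 4.64% of all genes were. Cebpa, Gfi1, Myb, Spi1 and the other listed regulators were in the gene table but were not markers. With 20 markers per cluster, the lack of a gene does not show that it was low.

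Genes of later granules and stages were spread over other clusters. Of 16 on the list, 14 were markers, against 0.835% of all genes, and 0 of the 14 were in Early-Stage 1. Each marker was listed for 1 cluster only. The log2 fold changes of the 14 in the authors' deposited table ranged from 0.87 for Cxcr2 to 3.00 for Ltf. Ltf (lactoferrin), Camp and Ngp, of the specific granules, were listed in NETosis 1, and Fcnb, the ficolin B gene, in Early-Stage 2. The share of cells outside the cluster that listed the gene ran from 19.20% for Fcnb to 84.64% for S100a8 in the authors' deposited table. All 5 azurophil granule genes lay below that range. So did other markers, among them Npm1 (6.81%) and Gstm1 (13.29%) of Early-Stage 1 and Pcna (17.41%) of Early-Stage 2. The cluster left out differed between genes, so these shares do not cover the same cells. Of 8 proliferation genes on the list, 6 were markers, against 0.835% of all genes. In Early-Stage 2 there were 5 (H2afz, Mki67, Pcna, Top2a and Birc5), and Hmgb2 was listed in NETosis 2. In Early-Stage 1 there were 0, where 0.0928% of all genes were listed, so this count cannot be set apart from that share. Of 11 genes of precursor surface and stage, 2 were markers, against 0.835% of all genes. These were Cxcr4 and Csf3r, both listed in Inflammation. Of the 11, 2 were flagged as variable, against 4.64% of all genes, a count too small to set apart from that share. These were Cxcr4 and Kit, a receptor gene of progenitors. The others, Cd34 and Flt3 among them, were not flagged.

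The neighbours of the 5 genes on the chromosome were looked up in the same tables. Taking 3 protein-coding genes on each side gave 25 distinct neighbours besides the 5 genes themselves. Of these, 20 were in the neutrophil gene table. Among the 1000 most variable genes (4.64% of all genes in the table) there were 0, and 1 was a listed marker (0.835% of all genes). Both counts are too small to set apart from those shares. The listed marker was R3hdm4, in ECM Remodeling, 21836 bases beyond Elane. Cfd, the complement factor D gene, lies 2637 bases beyond Elane, and Lpo, the lactoperoxidase gene, lies 2014 bases beyond Mpo. Both were in the gene table and neither was variable or a marker. Elane and Prtn3, side by side, had log2 fold changes of 4.47 and 3.95 in the authors' deposited table but differed in cells outside the cluster, 977 against 1754.

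The transcripts of the 5 genes shared only short identical runs, and likeness with mismatches was not measured. The longest identical run between the main transcripts of any pair was 17 bases, for Elane and Prtn3, and 9 to 12 bases for the other pairs. Prtn3 overlaps Plppr3 and Mpo overlaps Gm11505, both on the opposite strand. Both partners were in the neutrophil gene table. Whether counting used the strand is not given in the sources used here, so for these 2 genes reads of the partner could not be told apart.

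The libraries were compared by their shares of Early-Stage 1 cells, the cluster that listed these genes. Cells with the genes in other clusters, a large part of all such cells, could not be compared between libraries. Early-Stage 1 made up 7.37% of shZdhhc17 neutrophils (319 of 4328, exact 95% interval 6.61 to 8.19) and 7.16% of shSCR neutrophils (472 of 6594, 6.55 to 7.81). The intervals overlapped, and the ratio was 1.03 (0.898 to 1.18). As a share of all cells Early-Stage 1 was lower in shZdhhc17, at 1.48% (interval 1.33 to 1.65), than in shSCR, at 2.06% (interval 1.88 to 2.26). The ratio was 0.718 (0.624 to 0.827), and the intervals were separate. In the shZdhhc17 library 4328 of 21511 cells were neutrophils, and in shSCR 6594 of 22860. With at least 1000 UMIs per neutrophil the shares were 10.6% in shZdhhc17 and 8.20% in shSCR, a limit that removed 1346 shZdhhc17 and 875 shSCR neutrophils but 2 and 3 Early-Stage 1 cells. Without the 5% of neutrophils with the most UMIs the ratio was 1.84. This limit, 18753 UMIs, was set over both libraries together. It removed 434 shSCR and 113 shZdhhc17 neutrophils, among them 294 and 95 Early-Stage 1 cells. Each group being a single library, no test could be made, and the spread between mice is unknown.

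Early-Stage 1 cells carried more of the neutrophil RNA than their number. They held 26.1% of the UMIs of shSCR neutrophils and 29.4% of those of shZdhhc17 neutrophils. Their median was 15679 UMIs in shZdhhc17 and 21152 in shSCR, a ratio of 0.741. The middle of their cells spanned 11989.5 to 19696 UMIs in shZdhhc17 and 15989.75 to 25881.75 in shSCR (lower to upper quartile), so the ranges overlapped. All 9 clusters had a lower median in shZdhhc17.

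**Figure D3:**
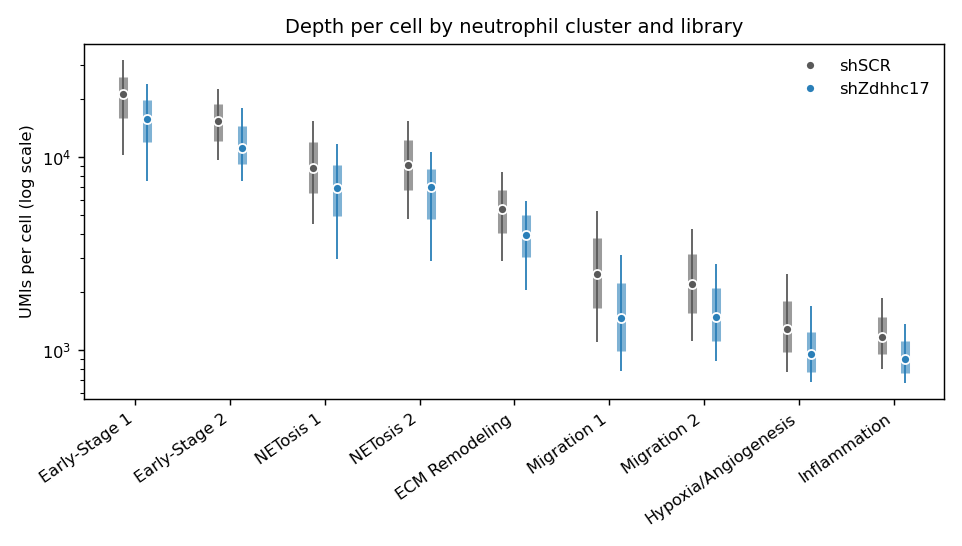
UMIs per cell (log axis) for the 9 neutrophil clusters in both libraries, with medians as points, quartiles as thick bars and the 10th to 90th percentiles as thin lines. Early-Stage 1 is the deepest cluster in both libraries, with medians of 21152 and 15679, and each cluster is shallower in shZdhhc17.

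Within each library, Early-Stage 1 was concentrated among the neutrophils with the most UMIs. The neutrophils of each library were put in order of UMIs and cut into 10 groups of equal size. In the deepest group Early-Stage 1 made up 58.1% of cells in shZdhhc17 (53.3 to 62.8) and 54.6% in shSCR (50.7 to 58.5), and the intervals overlapped. This group held 78.7% of the Early-Stage 1 cells of shZdhhc17 and 76.3% of those of shSCR. In each of the 6 shallowest groups it made up under 1% of cells in both libraries. The deepest group began at 15533 UMIs in shSCR and 11360 in shZdhhc17.

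**Figure D4:**
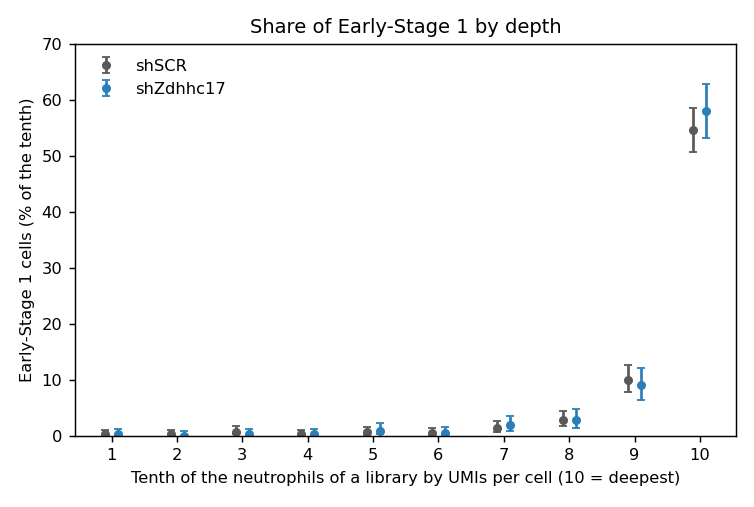
Percent of cells in Early-Stage 1 within each of 10 equal groups of the neutrophils of a library, ordered by UMIs per cell, with exact 95% intervals. In both libraries the share stays under 3% in groups 1 to 8, is 10.0% and 9.01% in group 9 and is above 54% in group 10.

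Mitochondrial RNA was also highest in this cluster. The median mitochondrial share of UMIs was 6.25% in shZdhhc17 Early-Stage 1 cells and 5.96% in shSCR ones, against 0.452% and 1.52% in the other neutrophils of the same libraries. Early-Stage 2 was next, at 5.12% and 5.13%. The mitochondrial genes mt-Nd1 and mt-Nd2 were among the 20 markers of Early-Stage 1, with log2 fold changes of 3.00 and 2.76 in the authors' deposited table. At or below the median mitochondrial share of all neutrophils (1.33%), 0 Early-Stage 1 cells were left of 2820 shSCR neutrophils, which allows a share of up to 0.106% (3 cells of the total), and 2 of 2641 in shZdhhc17.

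By cell type, the cells of this cluster were all annotated as neutrophils, because only neutrophils entered the 9 clusters. Before the neutrophils were clustered on their own, 754 of the 791 cells (95.3%) lay in the initial clusters 15 and 16 of all cells. Of the other 37 cells, 36 were in initial cluster 37, which was mostly Early-Stage 2, and 1 in initial cluster 59. No monocyte, macrophage, MDSC, basophil or other annotated type shared initial clusters 15 and 16 (0 of 987 cells), nor did a neutrophil of the 7 later clusters. In the final fine clustering, Early-Stage 1 cells lay in 15 clusters, and in 10 of them all neutrophils were Early-Stage 1.

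Besides 3 Early-Stage 2 cells, the cells that shared these initial clusters were labelled as doublets by the authors. The doublet-labelled cells made up 230 of 987 cells (23.3%, 20.7 to 26.1) in initial clusters 15 and 16. In the 30 other initial clusters with over 50% neutrophils they made up 1.38% (1.16 to 1.62), with 0 to 3.99% in single clusters. Over all cells the share was 5.71%. In clusters 15 and 16 it was 23.1% in shZdhhc17 (19.1 to 27.6) and 23.4% in shSCR (20.1 to 27.1), and the intervals overlapped.

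Most of these were of 2 labels that differed in depth. The label ?D10 had 75 of its 79 cells in clusters 15 and 16 and a median of 24364 UMIs, above the 18559 of Early-Stage 1. The label ?D11 had 127 of its 138 cells there and a median of 693.5 UMIs and 486 genes. The 2 labels together made up 0.418% of shZdhhc17 cells (0.337 to 0.514) and 0.556% of shSCR cells (0.463 to 0.661). Whether these cells were doublets, and of which cell types, was not analysed here, nor were their levels of the 5 genes.

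**Figure D5:**
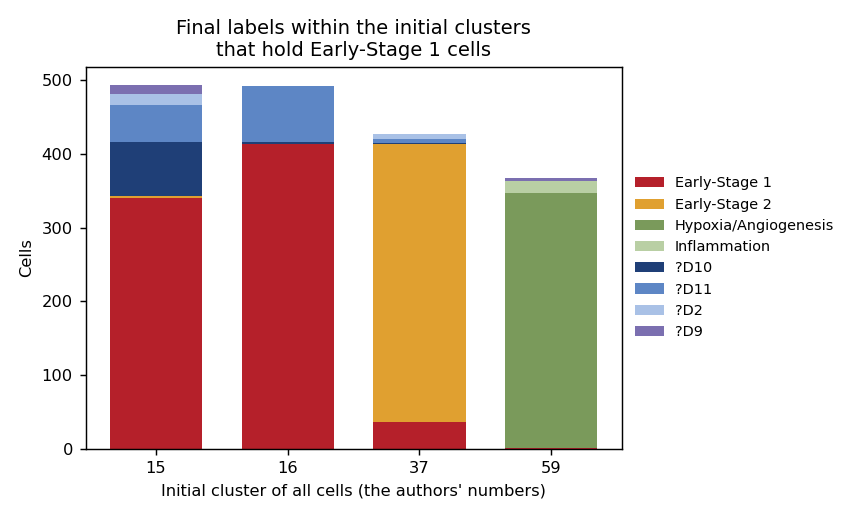
Number of cells by final label in the 4 initial clusters that hold Early-Stage 1 cells. Clusters 15 and 16 are Early-Stage 1 with doublet labels (?D10, ?D11, ?D2 and ?D9) and 3 Early-Stage 2 cells, cluster 37 is mostly Early-Stage 2 and cluster 59 mostly Hypoxia/Angiogenesis.

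Markers of other cell types were looked for among the 20 markers of Early-Stage 1, or 0.0928% of the genes in the neutrophil gene table. At that share, 0 matches would be likely for any short list. Of the lists for macrophages and monocytes, dendritic cells, basophils and mast cells, T and NK cells, B cells, erythroid cells, hepatocytes, 4T1 epithelium, endothelium and fibroblasts, 0 genes were among them. Of the 5 basophil and mast cell genes 3 were in the neutrophil gene table, of the 9 macrophage and monocyte genes 7, and of the 3 each of hepatocytes, endothelium and fibroblasts 1. Genes of mature neutrophils (S100a8, S100a9, Csf3r, Cxcr2, Ly6g, Retnlg and Mmp9) were likewise absent from the 20. Of these 7, 6 were markers of other neutrophil clusters. No marker was listed for more than 1 cluster, so these 6 could not be listed here too. The list for azurophil-stage precursors was the same 5 genes and so gave no separate check of the cluster's name. Cell numbers shared by both libraries came to 609, of which 96 had the same type label in both, and 11 shSCR and 7 shZdhhc17 Early-Stage 1 cells had such a number. Without all cells of these numbers the ratio of Early-Stage 1 shares was 1.03 (0.900 to 1.19).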

How the data were processed

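Single cells were captured on BD Rhapsody cartridges, 1 pooled library per group. The Rhapsody pipeline was run by the authors, who also corrected counts for ambient RNA, clustered the cells and named them from markers, with the GRCm38 (mm10) gene set, per the file headers. The submitters' processing notes name Seurat, version 4.1.0. For the other tools, versions are not given in the sources used. The authors deposited whole-number counts of UMIs and genes per cell, the percent of mitochondrial UMIs, and per marker a log2 fold change (Wilcoxon method of Seurat, pseudocount of 1, per the file headers). Per marker they also deposited the fraction of cells in which the gene was above 0 (given as a percent in the text), and a specificity and a marker score. The score formulas given in the headers were recomputed and matched. Variable-gene flags were used as deposited. A fraction times the cells of the cluster gave cells with the gene.

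Shares have exact (Clopper-Pearson) 95% intervals, and ratios of shares (shZdhhc17 over shSCR) log-normal 95% counting intervals. Higher or lower, said of a share, means that its exact intervals were separate. No p-value was computed, since each group was 1 library. Doublets and unknown cells stayed in the totals, and no doublet caller was run. Genes named were the 5 members, the 5 other Early-Stage 1 markers of highest fold change, the 3 nearest to Mpo in percent of cells, and list genes that were markers. Other list genes, neighbouring and overlapping genes and further markers are named after their values were seen. The genes and lists were chosen with earlier results of these data known. Interval and motif code was tested on simulated data (Python 3.11.15, SciPy 1.17.1, pandas 2.3.3).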

Additional observations from a re-analysis of the deposited data

How the results depend on the processing

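The ratio of Early-Stage 1 shares among neutrophils (1.03) depended on the cells counted. It was 0.718 over all cells, with separate intervals, and 0.829 over cells other than cancer cells (ratio interval 0.720 to 0.953, share intervals overlapping), which are shares of another whole. It was 1.35 in neutrophils of 1093 UMIs (the lower quartile) or more, 1.30 with at least 1000 UMIs and 1.84 without the 5% with the most UMIs, all with separate intervals. The first limit removed 1592 shZdhhc17 and 1138 shSCR neutrophils but 2 and 4 Early-Stage 1 cells, and the second was alike, so that the shares rose through the totals. The last was set over both libraries together and removed 95 of 319 shZdhhc17 and 294 of 472 shSCR Early-Stage 1 cells. The ratio was 1.02 for both Early-Stage clusters, and, chosen after seeing the data, 1.03 without shared cell numbers and 1.03 with the doublet-labelled cells of clusters 15 and 16. Below the median mitochondrial share no ratio could be formed, since shSCR had 0 such cells. Ranked by specificity, 3 of the 5 genes were among the 5 highest of the cluster, against 4 by log2 fold change and by marker score. All 5 had a log2 fold change of at least 1. The ratio of median UMIs was 0.739 with at least 1000 UMIs (0.741 with all cells). No paired analysis was possible because each group is 1 library, and for the same reason no replicate could be left out.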
